A study of Mus musculus with 6 samples.

Results

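The genes described here are 10 genes that mark pericentral hepatocytes, the liver cells around the central vein, or that are direct outputs of the Wnt signal acting there: Glul, Slc1a2, Lgr5, Axin2, Rnf43, Znrf3, Rhbg, Oat, Tbx3 and Lect2. They were chosen by name, from general knowledge of liver biology and with earlier results of these data known. Every probe set that the platform's annotation pairs with a listed symbol alone was taken, which gave 22 of 45037 probe sets, or 10 of 18193 genes. A further probe set is paired with both Slc1a2 and Gm13872 and was kept apart. The arrays carried liver RNA of untreated female mice aged 8 weeks, 3 of the inbred strain NZB/BinJ (NZB) and 3 of the inbred strain SM/J (SM), with 1 array per mouse. Both strains were weaned to chow at 3 weeks, fasted for 4 hours before collection, and had the liver flushed with 50 mL of buffered saline. No allele was engineered and no agent was given in either strain, so the design compares native liver RNA of NZB with that of SM. Each array is labelled as a biological replicate, so p-values measure the spread between mice of a strain.

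In the liver lobule, endothelial cells of the central vein secrete Wnt ligands and R-spondin 3, which keep beta-catenin active in the hepatocytes beside them. R-spondins bind LGR receptors and hold back the ubiquitin ligases RNF43 and ZNRF3, which would otherwise remove Frizzled receptors from the cell surface. Pericentral hepatocytes are known for making glutamine from ammonia that escaped the urea cycle of the periportal zone. Some Wnt outputs are themselves brakes or boosters of the signal, and others are the enzymes and transporters of the pericentral programme.

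The values are log2 expression per probe set, and differences are NZB minus SM on that scale. Of 7 measured hepatocyte markers, none passed limma's adjusted test (defined below), 1 had an unadjusted p under 0.05, and they read 14.2 to 14.9 on all arrays. SM replicate 2 stood apart in Xist, a long RNA that coats the inactive X in female cells. Its probe set 1436936_s_at read 7.32 on that array and 12.6 to 12.9 on the others. At 1427262_at the array read 4.62, beside 9.58 to 11.04, and at 1427263_at 4.96, beside 7.92 to 8.82. The 9 probe sets of the Y-linked genes Eif2s3y, Kdm5d and Uty read at most 5.67 on any array, SM replicate 2 included. This 5.67 is used below as the background level, and the Xist readings of 4.62 and 4.96 lie under it. The cause of the low Xist was not tested. Markers of other cell types were read at the brightest probe set of each gene. On that footing 7.09% of all genes were higher in NZB and 11.2% lower. Of 8 Kupffer cell markers, 5 were higher in NZB and 1 was lower. Their list means were 9.57 to 9.84 in NZB and 9.34 to 9.49 in SM. The B and plasma cell markers had 3 of 5 higher, with list means of 8.15 to 8.63 in NZB and 6.45 to 6.54 in SM. Markers of endothelial cells, the type that secretes Wnt around the central vein, had 2 of 12 higher and 4 lower (8.04 to 8.15 in NZB, 8.11 to 8.23 in SM). No marker of stellate cells (8 measured) or bile duct cells (5 measured, with Cftr and Krt7 below background on all arrays) passed, and 5 of the stellate and 1 of the bile duct markers had an unadjusted p under 0.05. The stellate list means were 7.80 to 7.99 in NZB and 7.67 to 7.94 in SM. The part of these markers in the results below was not tested. In bulk RNA, fewer cells of a type and less RNA per cell cannot be told apart, and the number of arrays limits the precision of every value.

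Most of the pericentral Wnt probe sets did not pass the test between the strains. A probe set was called where limma's two-sided test, with Benjamini-Hochberg adjustment over all 45037 probe sets, gave an adjusted p under 0.05. Of the 22 probe sets, 4 were higher in NZB, 1 was lower and 17 were not called. That is 22.7% called, beside 14.8% of all probe sets. The higher calls made up 18.2% of the 22, beside 6.09% of all probe sets, and the lower call 4.55%, beside 8.69%. The higher calls include an Axin2 probe set that was below background on all 6 arrays. The called probe sets belong to Slc1a2, Lgr5, Axin2, Tbx3 and Lect2, and each of these genes except Lect2, which has a lone probe set, also has probe sets that were not called. The median difference was 0.032, beside 0.023 for all probe sets, and the median size of a difference was 0.18, beside 0.10. The arrays of the strains did not overlap for 7 of the 22 (31.8%), beside 34.3% of all probe sets, which is close to the background. Without SM replicate 2, 3 were higher and 1 was lower. Without NZB replicate 1 or NZB replicate 3, 2 were higher and 1 was lower.

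**Figure D1:**
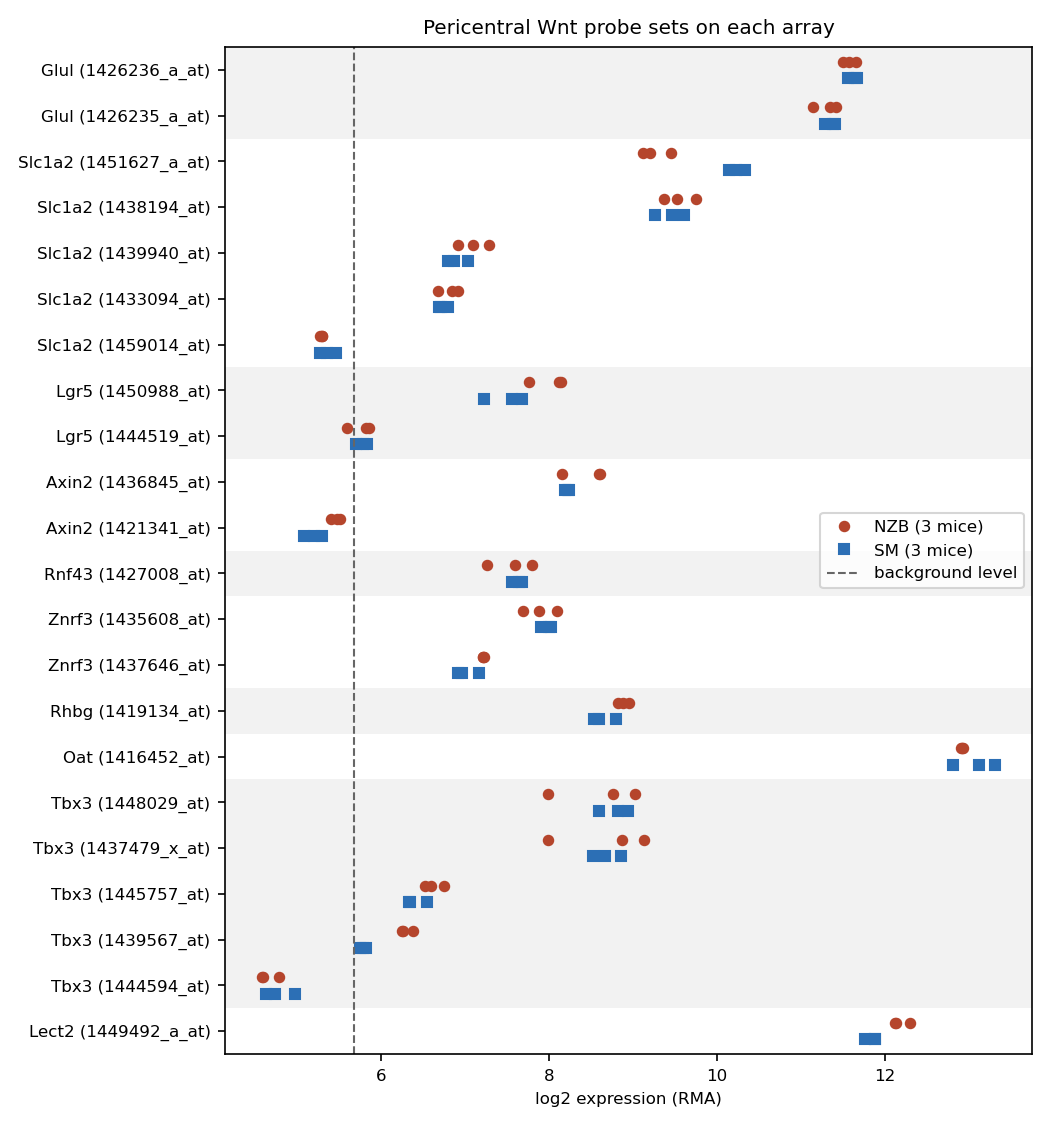
Log2 expression of the 22 probe sets on each array, with NZB mice as circles above and SM mice as squares below, and the dashed line at the background level of 5.67. The strains are apart at Slc1a2 1451627_a_at and Tbx3 1439567_at, and overlap at both probe sets of Glul.

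Slc1a2 encodes the glutamate transporter GLT-1, which in liver is known from the same pericentral cells as glutamine synthetase. It has 5 probe sets, and they did not give the same answer. The probe set 1451627_a_at read 9.45, 9.12 and 9.19 on the NZB arrays and 10.33, 10.22 and 10.14 on the SM arrays. Every NZB array lay below every SM array. The difference was -0.98 (SE 0.093, limma adjusted p = 0.000244), which is 1.97-fold lower in NZB, with means of 9.25 ± 0.17 in NZB and 10.23 ± 0.091 in SM (SD, n = 3 each). It was the largest difference among the 22 probe sets and passed the test under every alternative setting (adjusted p 7.98e-05 to 0.00249), without SM replicate 2 included (0.00201).

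The next brightest Slc1a2 probe set, 1438194_at, read 9.75, 9.53 and 9.37 in NZB and 9.25, 9.46 and 9.61 in SM, and the strains overlapped. Its difference was 0.11 (95% interval -0.15 to 0.37, limma adjusted p = 0.584). The probe set 1439940_at differed by 0.20 (-0.033 to 0.42) and 1433094_at by 0.080 (-0.091 to 0.25), neither past the test. The probe set 1459014_at read 5.27 to 5.46, below background on all 6 arrays, so it gives no measure of a difference. The probe set shared with Gm13872, 1433095_at, differed by -0.029 (-0.24 to 0.18). Within each array, 1451627_a_at stood at -0.30, -0.41 and -0.18 relative to 1438194_at in NZB and at 1.07, 0.76 and 0.54 in SM. This gap was 1.09 lower in NZB, and the strains did not overlap. The pair was taken as the brightest Slc1a2 probe set that was called and the brightest that was not. The gap therefore restates the differences of both probe sets and is no separate support. An exact two-sided permutation test of it gave p = 0.1, the smallest that 3 against 3 arrays can give. By the array maker's naming, the ending _a_at marks probes that read several transcripts of a gene. Which transcripts each Slc1a2 probe set reads was not analysed here, nor was the match of its probes to NZB or SM sequence.

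Lect2 encodes a protein that hepatocytes secrete into plasma and is known in mouse liver as a beta-catenin target. Its probe set, 1449492_a_at, read 12.12, 12.30 and 12.13 in NZB and 11.88, 11.88 and 11.76 in SM. All NZB arrays lay above all SM arrays. The difference was 0.34 (SE 0.072, limma adjusted p = 0.0138), a 1.27-fold higher level in NZB, with means of 12.18 ± 0.099 in NZB and 11.84 ± 0.067 in SM (SD, n = 3 each). The call held under every alternative (adjusted p 0.00793 to 0.0492) and was closest to the threshold without NZB replicate 2. Without SM replicate 2 it was 0.36 (adjusted p = 0.0396).

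Promoter sequence was at hand for 6 of the 10 genes in a RefSeq table of the mouse assembly GRCm38.p6, in 7 windows of 250 bases before an annotated start site, since Rnf43 has a pair of them. The array table names no build, and these windows were matched by gene symbol only. TCF/LEF factors, through which beta-catenin acts on DNA, are known to bind a short core with the letters CTTTG. The searched motifs were CTTTGAT and CTTTGTT, and with them CTTTGAA and CTTTGTA, on both strands. A place that matches any of these 4 cannot match another of them on the same strand. Of the 7 windows, 2 held a match, those of Slc1a2 and Lect2, in each case CTTTGAT on the strand opposite the gene. Of all 32851 promoters in the table, 3.21% held CTTTGAT and 14.8% held any of the 4. Slc1a2 has 1 probe set called lower in NZB beside others not called, and Lect2 has 1 called higher. The windows of Slc1a2 (chr2:102706188-102706437, plus strand) and Lect2 (chr13:56548539-56548788, minus strand) are shown because they alone held a match. They run 5′ to 3′ along the gene, end at the base before the start site, and the capitals mark the match as it reads on the gene's strand, ATCAAAG.
Slc1a2: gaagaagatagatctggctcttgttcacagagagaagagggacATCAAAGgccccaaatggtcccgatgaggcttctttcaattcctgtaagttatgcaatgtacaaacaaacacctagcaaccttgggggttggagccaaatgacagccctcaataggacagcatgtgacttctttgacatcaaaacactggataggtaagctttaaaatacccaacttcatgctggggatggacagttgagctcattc
Lect2: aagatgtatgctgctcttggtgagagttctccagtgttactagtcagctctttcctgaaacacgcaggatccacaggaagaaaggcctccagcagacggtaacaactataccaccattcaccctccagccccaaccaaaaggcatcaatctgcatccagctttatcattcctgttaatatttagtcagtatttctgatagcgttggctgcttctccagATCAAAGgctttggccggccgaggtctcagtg
The match ends 200 bases before the start site in Slc1a2 and 25 bases before it in Lect2. The windows of Glul, Axin2, Rnf43 and Oat held none of these letters, which says nothing of the factors themselves.

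**Figure D2:**
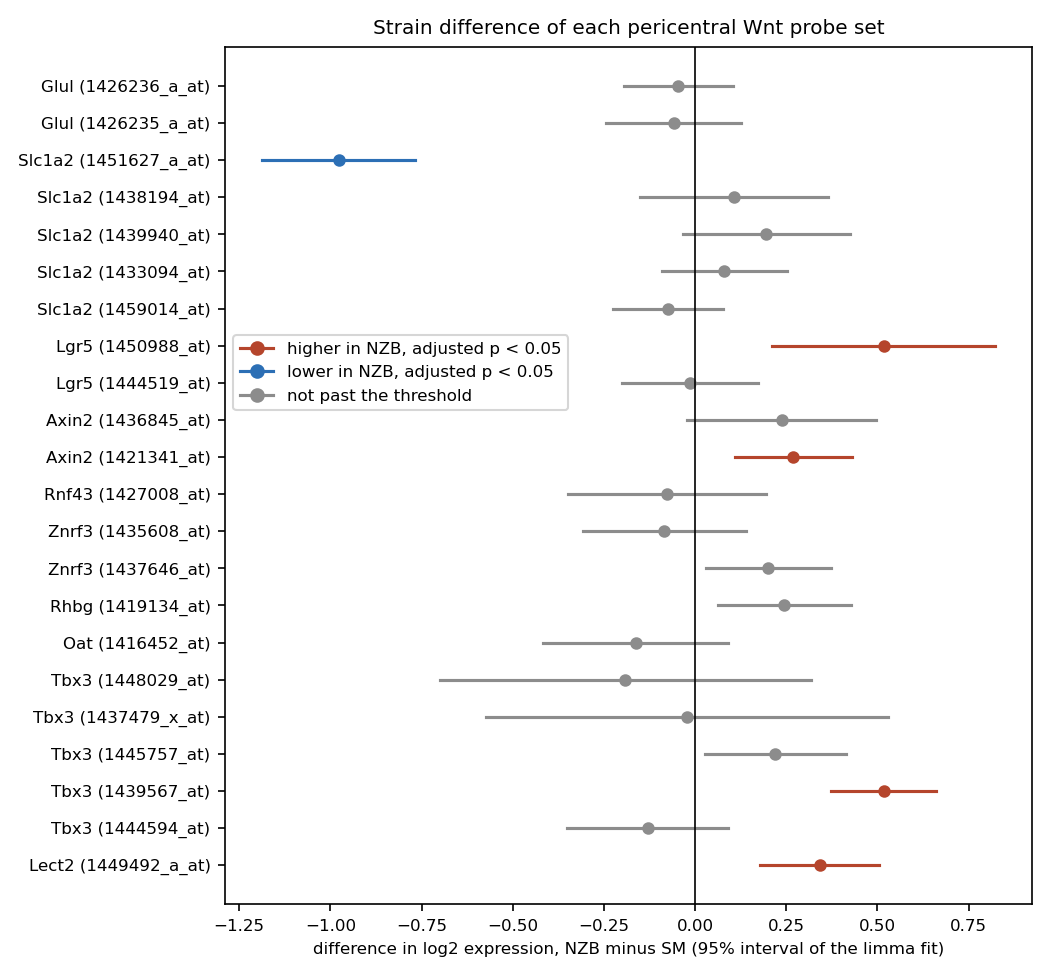
Difference in log2 expression, NZB minus SM, for each of the 22 probe sets, with its 95% interval from the limma fit. The interval of Slc1a2 1451627_a_at lies from -1.19 to -0.77, that of Tbx3 1439567_at from 0.37 to 0.66, and those of both Glul probe sets span 0.

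Lgr5 encodes a receptor for R-spondins and is itself a Wnt target. Its probe set 1450988_at read 8.11, 7.75 and 8.14 in NZB and 7.22, 7.56 and 7.68 in SM. NZB arrays lay above SM arrays, though NZB replicate 2 and SM replicate 3 were only a little apart. The difference was 0.52 (SE 0.14, limma adjusted p = 0.0341), 1.43-fold higher in NZB. The call ended without NZB replicate 1 (adjusted p = 0.103), NZB replicate 3 (0.127), SM replicate 1 (0.0720) or SM replicate 2 (0.0733), with differences of 0.38 to 0.55. The other Lgr5 probe set, 1444519_at, lay at the background level, at 5.59, 5.86 and 5.82 in NZB and 5.83, 5.70 and 5.79 in SM, and differed by -0.015 (adjusted p = 0.929).

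Axin2 encodes a scaffold of the complex that degrades beta-catenin, and its rise under Wnt is a known brake. The brighter probe set, 1436845_at, read 8.60, 8.15 and 8.60 in NZB and 8.22, 8.23 and 8.19 in SM. NZB replicates 1 and 3 lay above all SM arrays and NZB replicate 2 below them. The difference of 0.24 was not past the test (95% interval -0.021 to 0.50, limma adjusted p = 0.208), and without NZB replicate 2 it was 0.39 and passed (adjusted p = 0.0115). The dim probe set, 1421341_at, read 5.47, 5.40 and 5.50 in NZB and 5.08, 5.20 and 5.29 in SM. It passed the test at 0.27 (SE 0.071, adjusted p = 0.0349), but all 6 readings were below background, so no fold is given. This call also ended without SM replicate 2 (adjusted p = 0.0932).

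Rnf43 and Znrf3 encode the ubiquitin ligases that clear Frizzled receptors, and both are known Wnt targets. Rnf43, by 1427008_at, read 7.59, 7.26 and 7.79 in NZB and 7.68, 7.64 and 7.56 in SM. The strains overlapped, with NZB replicate 2 the lowest of all arrays, and the difference was -0.077 (95% interval -0.35 to 0.19, limma adjusted p = 0.723). Znrf3 has a pair of probe sets. The brighter, 1435608_at, read 8.09, 7.69 and 7.88 in NZB and 8.02, 8.00 and 7.90 in SM, a difference of -0.084 (-0.31 to 0.14, adjusted p = 0.624). The dimmer, 1437646_at, read 7.21, 7.22 and 7.22 in NZB and 6.96, 7.17 and 6.91 in SM, with no overlap. Its difference of 0.20 did not pass (adjusted p = 0.116), and passed without SM replicate 2 at 0.28 (adjusted p = 0.0442).

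Tbx3 encodes a T-box transcription factor known as a beta-catenin target in mouse liver. Of its 5 probe sets, 1439567_at was called: it read 6.25, 6.26 and 6.38 in NZB and 5.74, 5.81 and 5.78 in SM. All NZB arrays lay above all SM arrays, at 0.52 (SE 0.064, limma adjusted p = 0.000998), 1.43-fold higher in NZB, though the SM readings were just above background. This call held under every alternative in which the probe set was tested (adjusted p 0.000781 to 0.00657), without SM replicate 2 included (0.00506). The brighter probe sets did not share it. The probe set 1448029_at read 9.03, 7.99 and 8.76 in NZB and 8.81, 8.59 and 8.94 in SM, and 1437479_x_at read 9.13, 7.99 and 8.86 in NZB and 8.67, 8.52 and 8.85 in SM. In both, NZB replicate 2 was the lowest array and NZB replicate 1 the highest. Their differences were -0.19 (95% interval -0.70 to 0.32) and -0.023 (-0.57 to 0.53), and without NZB replicate 2 they were 0.11 and 0.31, neither past the test. The ending _x_at marks probes that can also bind other sequences. The match of the Tbx3 probes to NZB or SM sequence was not analysed here. The probe set 1445757_at differed by 0.22 (adjusted p = 0.125), and 1444594_at, at 4.58 to 4.97, was below background on all arrays.

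**Figure D3:**
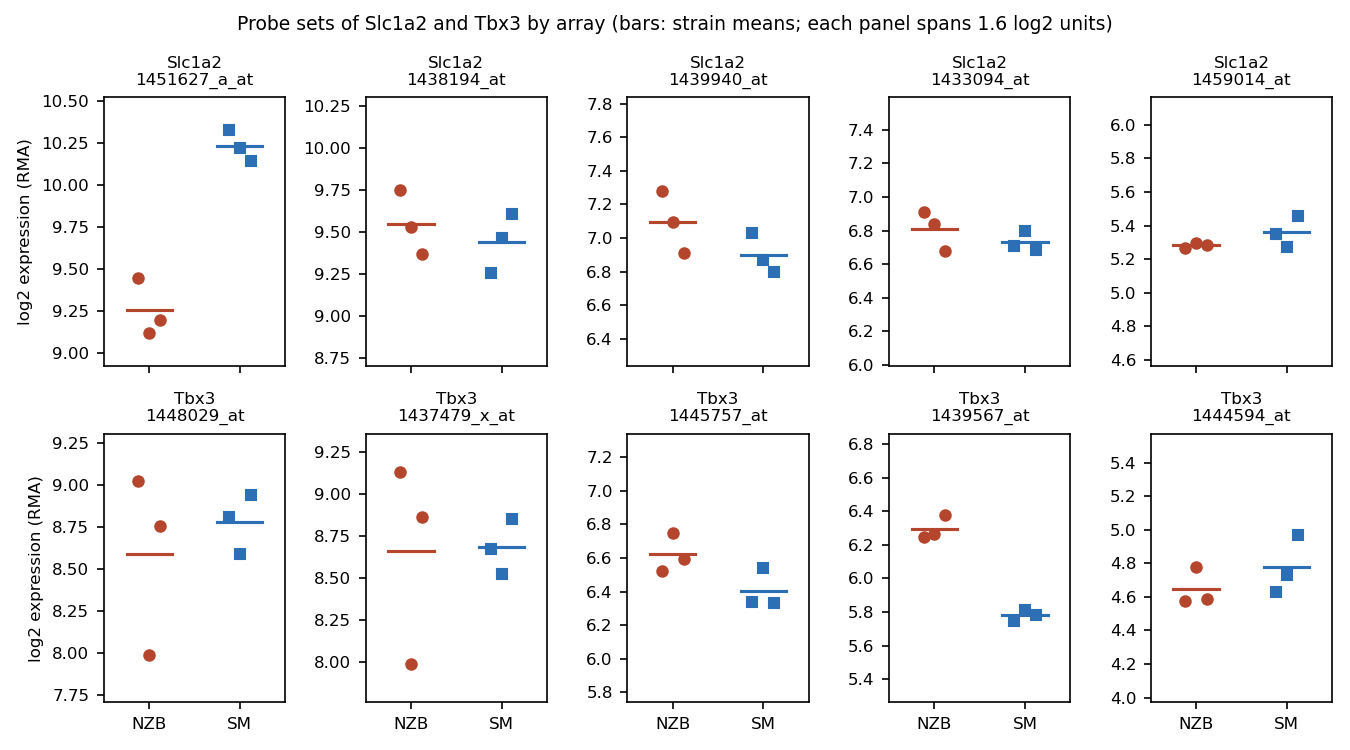
Log2 expression of each probe set of Slc1a2 (top) and Tbx3 (bottom) on the 3 NZB and 3 SM arrays, with a bar at each strain mean; all panels span the same range of log2 units. The strains do not overlap at 1451627_a_at and 1439567_at, and NZB replicate 2 reads 7.99 at the 2 brightest Tbx3 probe sets.

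Glul encodes glutamine synthetase, the enzyme by which pericentral hepatocytes fix ammonia and the usual marker of strong beta-catenin activity in liver. Its probe set 1426236_a_at read 11.65, 11.50 and 11.57 in NZB and 11.66, 11.64 and 11.56 in SM. The probe set 1426235_a_at read 11.42, 11.14 and 11.34 in NZB and 11.38, 11.40 and 11.28 in SM. The strains overlapped in both. The differences were -0.046 (95% interval -0.20 to 0.10) and -0.059 (-0.24 to 0.13), with limma adjusted p = 0.701 and 0.690. The interval nearest a change allows a level in NZB lower by up to 0.24 or higher by up to 0.13 on the log2 scale.

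Rhbg encodes an ammonium transporter of the pericentral hepatocyte membrane. Its probe set, 1419134_at, read 8.87, 8.95 and 8.82 in NZB and 8.79, 8.59 and 8.53 in SM, with no overlap. The difference of 0.24 (SE 0.081) did not pass the test (limma adjusted p = 0.0769). It passed without SM replicate 1 at 0.32 (adjusted p = 0.0229) and after quantile normalization at 0.33 (0.0231). Oat encodes ornithine aminotransferase, a mitochondrial enzyme that leads ornithine towards glutamate. Its probe set, 1416452_at, read 12.91, 12.93 and 12.90 in NZB and 13.31, 13.11 and 12.81 in SM. The NZB arrays lay close together inside the wider SM range, with SDs of 0.015 in NZB and 0.25 in SM. The difference was -0.16 (95% interval -0.42 to 0.090, adjusted p = 0.378), and without SM replicate 3 it passed at -0.30 (adjusted p = 0.0417).

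The arrays of a strain also differed among themselves in these genes. NZB replicate 2 was the lowest NZB array at 10 of the 22 probe sets, or 45.5%, beside 32.0% of all probe sets, and the highest at 8, or 36.4%, beside 35.5%. Its median deviation from the NZB mean over the 22 was -0.027. At the brightest probe sets of Lgr5, Axin2, Rnf43, Znrf3 and Tbx3 it lay below the NZB mean by a deviation of -0.25, -0.30, -0.29, -0.20 and -0.60. At Rhbg, Oat and Lect2 it lay above that mean, by 0.071, 0.016 and 0.11. It was also the lowest NZB array at 15 of 32 genes of the beta-catenin relay, its brakes included (46.9%). The same held at 11 of 25 periportal genes (44%) and 9 of 22 further pericentral genes (40.9%). It held at 5 of 16 further Wnt targets (31.2%) and 8 of 34 ligands, receptors and antagonists (23.5%). NZB replicate 1 was the lowest more often at the further pericentral genes (12 of 22, 54.5%) and the further Wnt targets (7 of 16, 43.8%). NZB replicate 3 was so at the ligands, receptors and antagonists (15 of 34, 44.1%). SM replicate 3 was the lowest SM array at 13 of the 22 (59.1%), beside 32.0% of all probe sets, and the highest at 7 (31.8%), beside 38.0%. It was also the lowest SM array at 20 of 25 periportal genes (80%), 11 of 22 further pericentral genes (50%), 13 of 32 relay genes (40.6%), 6 of 16 further Wnt targets (37.5%) and 8 of 34 ligands, receptors and antagonists (23.5%). SM replicate 1 was the lowest more often at the further Wnt targets (7 of 16, 43.8%), and SM replicate 2 at the ligands, receptors and antagonists (17 of 34, 50%). NZB replicate 2 and SM replicate 3 were singled out after their values were seen, and no test was made of the pattern.

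**Figure D4:**
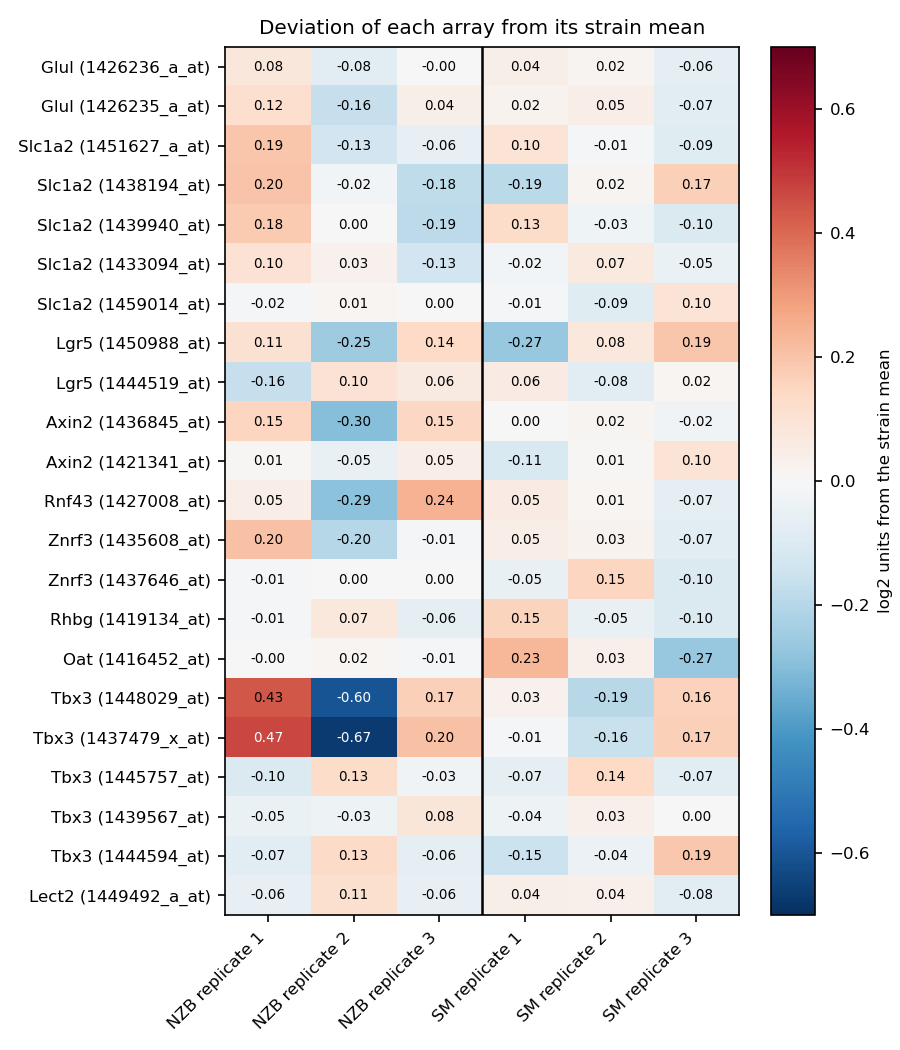
Deviation of each array from its strain mean, in log2 units, for the 22 probe sets, with NZB replicates left and SM replicates right of the line; red is above and blue below the mean. NZB replicate 2 is below the NZB mean by 0.60 and 0.67 at the bright Tbx3 probe sets and also low at the bright probe sets of Lgr5, Axin2, Rnf43 and Znrf3.

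The rest of the pathway is given by the brightest probe set of each gene, for which 7.09% of all genes were higher in NZB and 11.2% lower. On that footing 18.3% of all genes were called, and the 10 pericentral Wnt genes had 2 higher (Lgr5 and Lect2), 1 lower (Slc1a2) and a median difference of -0.061, beside 0.021 for all genes. Of 34 ligands, receptors and antagonists, 2 were higher, 4 were lower and 28 were not called (median 0.038). The higher genes were the Wnt receptors Ryk (0.35, limma adjusted p = 0.00869) and Fzd2 (0.33, 0.0107). The lower genes were the receptors Fzd4 (-0.44, limma adjusted p = 0.00315), Lgr4 (-0.30, 0.0485) and Lrp6 (-0.29, 0.0201), and the ligand Rspo3 (-0.31, 0.0495). Another Fzd4 probe set, 1419301_at, differed by -0.093, another of Lgr4 by 0.068 and another of Rspo3 by -0.0032, none past the limma test. Rspo3 was near background, at 5.85 ± 0.16 in NZB and 6.16 ± 0.085 in SM (SD, n = 3 each). The call of Rspo3 ended without NZB replicate 2 or 3 or SM replicate 1 or 2 (limma adjusted p up to 0.145). That of Lgr4 ended without any array but SM replicate 3 and after quantile normalization (up to 0.161). That of Lrp6 ended without NZB replicate 2 or 3 or SM replicate 1 and after quantile normalization (up to 0.0798), and another Lrp6 probe set was higher in NZB by 0.59. Without NZB replicate 3 the list had 1 higher and 1 lower. The ligands Wnt2 and Wnt9b, looked up after the values were seen, differed by 0.077 and 0.13, not past the test. A list of 32 genes covers the cytoplasmic and nuclear relay of the signal, with parts of the complex that degrades beta-catenin among them. A count of its genes therefore gives no direction of signalling. Of the 32, 10 were lower (31.2%, beside 11.2% of all genes). None was higher by limma (2 at an unadjusted p under 0.05) and 22 were not called, with a median of -0.12. Every array left out lowered this count: 4 were lower without SM replicate 2, 5 without NZB replicate 3 or SM replicate 1, and 6 without NZB replicate 1, NZB replicate 2 or SM replicate 3. With the replicate block 6 were lower, and 1 was higher without NZB replicate 1, without SM replicate 3 and after quantile normalization. The kinase genes Gsk3b (-0.76, 9.48e-05), Csnk1g1 (-0.74, 0.000861) and Csnk1g3 (-0.54, 0.00223) differed most, but another Gsk3b probe set was higher in NZB by 1.22. Ctnnb1, beta-catenin itself and also looked up afterwards, differed by -0.054 (95% interval -0.19 to 0.078).

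Of 16 further Wnt targets measured, 1 was higher at its brightest probe set, the adhesion receptor Cd44 (1.26, limma adjusted p = 4.11e-05). The 2 lower ones were the Wnt deacylase Notum (-0.49, limma adjusted p = 0.0165) and Tnfrsf19 (-0.42, 0.00517). Among those not called, looked up afterwards, Ccnd1 had 2 dimmer probe sets that were called higher and Cldn2 had 1. The call of Notum ended without SM replicate 2 (adjusted p = 0.0547). Of 22 further pericentral genes, 4 were higher, 4 were lower and 14 were not called (median 0.067). The higher ones were Csad, of taurine synthesis (1.75), Gstm3 (1.55), the vasopressin receptor Avpr1a (1.16) and Lgals1 (0.61). The lower ones were Cyp7a1, of bile acid synthesis (-1.68), Aldh3a2 (-0.63), Car14 (-0.62) and the amino acid transporter Slc16a10 (-0.53). The call of Car14 ended without NZB replicate 2 or 3 or SM replicate 1 or 2 (limma adjusted p 0.0582 to 0.107). That of Gstm3 ended without NZB replicate 2 or 3 or SM replicate 2 or 3, and with trended and robust variances (0.0731 to 0.184). Cyp2e1 and Cyp1a2, the usual pericentral cytochromes and looked up afterwards, differed by 0.035 and 0.15, not past the test. Of 25 periportal genes, 4 were higher (16%, beside 7.09% of all genes) and 10 were lower (40%, beside 11.2%). The higher ones were Cdh1 (1.66, the largest difference of the list), Ctsc (0.84), Etnppl (0.75) and Igf1 (0.62). The lower ones included Gpt2 (-1.13), Prodh (-0.74) and Tat (-0.73). The median of the periportal list was -0.12. With an array left out, its lower genes numbered from 5 (without SM replicate 2, NZB replicate 2 or NZB replicate 3) to 11 (without SM replicate 3). Its higher genes numbered 5 without SM replicate 1, 4 without NZB replicate 2 and 3 without any other array. They also numbered 3 with aligned medians and with trended and robust variances. Whether these lists differ from one another was not tested.

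**Figure D5:**
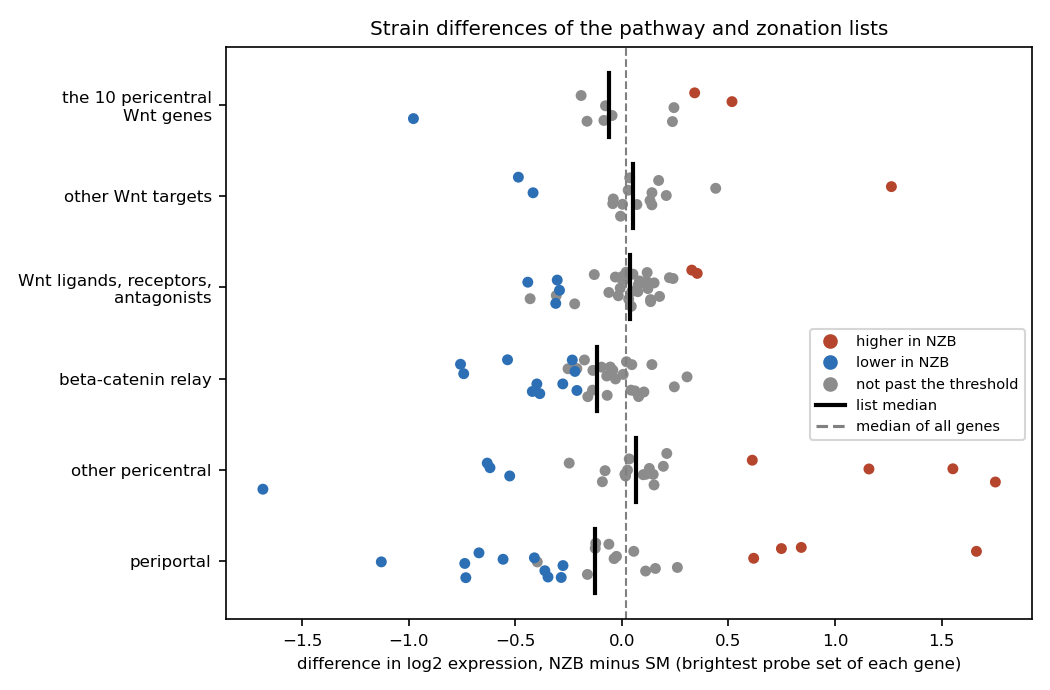
Difference in log2 expression, NZB minus SM, at the brightest probe set of each gene, by list, with the list median as a black bar and the median of all genes as a dashed line. The 10 pericentral Wnt genes lie from -0.98 (Slc1a2) to 0.52 (Lgr5), and their median of -0.061 is near that of all genes, 0.021.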

How the data were processed

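The submitters deposited log2 expression values of 6 liver arrays made with RMA, per the submitters' processing notes; its settings were not given in the sources used here, nor was a genome build. The log2 scale was taken from the deposited values: their maximum of 14.9 is below the 16 that log2 allows a 16-bit scanner and exceeds the 11.1 that a natural log would allow. Array medians were 6.60 to 6.66, and 0 columns were left unmatched to a mouse. No further normalization was applied. RMA shrinks small differences near background, and the match of single probes to NZB or SM sequence was not analysed here.

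Probe sets were named by the platform's annotation (34945 with 1 gene, 932 with several, 9160 with none), and symbols were updated through RefSeq's GRCm38.p6 gene table by Entrez ID (34741 matched, 204 kept the platform's symbol). NZB was compared with SM in limma 3.58.1 (R 4.3.3, lmFit and eBayes, trend and robust off) over all probe sets, and the fit was tested on simulated data. Other lists use each gene's brightest probe set by its mean over all arrays, so a gene not called there can have another probe set that was called. The members and lists were chosen with earlier results of these data known, from general knowledge of liver biology. Every probe set of the members is named. From each other list, up to 3 called genes per direction are named, and all where 5 or fewer were called. Same-numbered NZB and SM arrays are not labelled as sharing a source. Alternatives were each array left out, quantile normalization, aligned medians, trended and robust variances, dim probe sets left out, 1 probe set per gene and a replicate block.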

Additional observations from a re-analysis of the deposited data

How the results depend on the processing

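Of all probe sets, 6659 were called, 3741 to 6386 with an array left out, and 3827 genes with 1 probe set per gene. Of the 22 pericentral Wnt probe sets, 5 were called, 3 to 6 with an array left out, and 3 with 1 probe set per gene. With an array left out, the called genes numbered 2 to 8 of the ligands, receptors and antagonists, 4 to 7 of the relay genes, 2 to 4 of the further Wnt targets, 6 to 8 of the further pericentral genes and 8 to 14 of the periportal genes. The causes were not tested.

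Over all probe sets, the deviations of same-numbered NZB and SM arrays from their strain means correlated at 0.037, -0.055 and 0.025. NZB replicate 3 correlated best with the SM array of its own number, and NZB replicates 1 and 2 did not. Whether the shared numbers mark a common batch was not tested. With the replicate block, 6006 probe sets were called in all, 5 of the 22 pericentral Wnt ones, and 6 of the relay genes in place of 10.

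Signs turned only in differences that did not pass the test in either setting. With an array left out, the difference ran from -0.12 to 0.021 at Glul 1426235_a_at, from -0.20 to 0.068 at Rnf43, from -0.19 to 0.014 at Znrf3 1435608_at, from -0.41 to 0.11 at Tbx3 1448029_at and from -0.26 to 0.31 at Tbx3 1437479_x_at, each highest without NZB replicate 2. Tbx3 1437479_x_at was also positive, at 0.062, without SM replicate 3. Lgr5 1444519_at ran from -0.065 to 0.066, positive without NZB replicate 1 and, at 0.015, without SM replicate 1. Quantile normalization gave Glul 1426235_a_at at 0.0055, Tbx3 1437479_x_at at 0.051 and Cyp2e1 at -0.025. The call of the dim Axin2 probe set ended without any array but SM replicate 3 (limma adjusted p = 0.0628 to 0.121) and after quantile normalization (0.0555). Single arrays left out also ended the call of Fzd2 (0.0502, without NZB replicate 3), and trended and robust variances that of Csad (0.0562). Etnppl lost its call without NZB replicate 1 or 3 or SM replicate 2 or 3, with aligned medians and with trended and robust variances (0.0538 to 0.141). With 3 arrays per strain and no detection calls in the table, differences near the background level are the least certain.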
